A study of Mus musculus with 4 samples.

Results

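The genes described here are 10 lysosomal enzymes, the cathepsins Ctsa, Ctsb, Ctsc, Ctsd, Ctsk, Ctsl, Ctss and Ctsz, the legumain gene Lgmn and the acid phosphatase gene Acp5. They were taken by symbol from the 31053 genes counted, and each symbol was found once. Their levels were followed across the cell types of the mouse aortic arch by single-cell RNA sequencing, in which unique molecular identifiers (UMIs) mark single captured molecules. The study asked how loss of active Nrf2, a transcription factor of the antioxidant response encoded by Nfe2l2, changes the cells of the arch in health and in early atherosclerosis.

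All mice were males that descended from the lines B6;129-Tg(Cdh5-cre)1Spe/J and C57BL/6-Nfe2l2tm1.1Sred/SbisJ, and they entered the experiment at 3 months of age. Nrf2flox/flox mice carried floxed Nfe2l2 and served as controls, whereas in Nrf2Cdh5tKO mice Cre driven by the Cdh5 promoter was to excise exon 5, in endothelial cells and in blood cells of endothelial descent. Atherosclerotic mice had been fed a high-fat diet for 21 weeks as part of their treatment, and normocholesterolemic mice had standard food. Arches with their branches and the tissue around them were pooled from 4 normocholesterolemic or 3 atherosclerotic mice, and dead cells were removed by sorting. Each of the 4 conditions was thus 1 library, so nothing found between conditions could be checked in a replicate, and every interval below is a 95% interval for counting error only.

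Lysosomal proteases are made as inactive precursors, carried to the lysosome and activated there at acid pH. Together they break proteins into peptides and amino acids, and in phagocytes they digest engulfed cells and lipoproteins and cut antigens for presentation on MHC class II. Several of them are also secreted, and in the arterial wall they are known for cutting collagen and elastin.

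After filters, 14148 of 15599 cells were kept, 7890 normocholesterolemic Nrf2flox/flox, 2972 labelled normocholesterolemic Nrf2Cdh5tKO, 1020 atherosclerotic Nrf2flox/flox and 2266 labelled atherosclerotic Nrf2Cdh5tKO. Wherever 4 values follow each other below, they stand in this order. Median UMIs per kept cell were 12133, 14152.5, 10963 and 9200.5, and 22 kept barcodes occurred in more than 1 library. In endothelial cells the targeted gene Nfe2l2 was at 191, 379, 170 and 356 UMIs per 1000000 UMIs of these cells (CPM). It was higher there in the libraries labelled Nrf2Cdh5tKO. In macrophages it was at 442, 479, 413 and 421. Counts per gene do not show whether exon 5 was excised, so the labels could not be checked this way. The 10 genes together took 0.308%, 0.284%, 0.339% and 0.361% of the kept UMIs.

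Cells were assigned by marker genes that exclude the 10 enzymes, which gave 16 cell types with at least 10 cells in a library. The largest were 7752 fibroblasts, 2015 smooth muscle cells and 1222 macrophages. Macrophages had Csf1r, the receptor for the macrophage growth factor, at 862 CPM over all libraries, against 4.84 in fibroblasts. Csf1r was among the markers that gated macrophages, so this gap follows in part from the gate. They were split into 920 Lyve1+ resident macrophages, 83 Cd72+ Lyve1-negative macrophages that carry markers of aortic intima resident macrophages, 158 cavity macrophages with markers of serous cavity cells, and 61 other Lyve1-negative macrophages. The Lyve1+ gate took cells with any 3 of 6 resident markers and did not require Lyve1 itself. Of its 920 cells, 414 also held at least 4 of 5 proinflammatory markers, and proinflammatory macrophages were not gated as a kind of their own. The make-up of the macrophages differed between libraries: Lyve1+ cells were 69.1%, 89.9%, 74.3% and 75.3% of them, and cavity macrophages 18.9%, 2.90%, 9.46% and 9.25%.

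The stretches in front of these genes are shown because a family of lysosomal genes is known to share an E-box, CACGTG, bound by the lysosomal regulator TFEB, and because the study is about Nrf2, which binds the antioxidant response element TGACNNNGC. RefSeq promoters (GRCm38.p6) were at hand for 9 of the 10 genes, all but Ctsb, and the 250 bases before each start were searched on both strands. The table gives 3 starts for Acp5 and 2 each for Ctsa and Lgmn, so a window can lie inside a gene whose outer bounds are given further below. The E-box lay before at least 1 start of 4 of the 9 genes, Ctsa, Ctsd, Ctsl and Lgmn, and in 6.02% of 32851 mouse promoters or 6.86% of 27025 genes. Its longer form TCACGTGA, which overlaps it, lay before a start of Ctsa and of Ctsd and in 0.785% of promoters. The hits of Ctsa and Lgmn belong to the inner start, and the window before the outer start of each held none. The Ctsl hit and the nearer Ctsd hit also lie within the outer bounds of the gene, and 164 of the 250 bases of the Ctsa window and 211 of the Ctsd window are in annotated exons. In the lines below the capitals mark CACGTG, and the number of bases from its first base to the start is 12 for Ctsa, 98 and 245 for Ctsd, 236 for Ctsl and 49 for Lgmn.
Ctsa, chr2:164833749-164833772, + strand: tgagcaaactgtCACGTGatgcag
Ctsd, chr7:142387908-142387937, - strand: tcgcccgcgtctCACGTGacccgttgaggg
Ctsd, chr7:142388055-142388077, - strand: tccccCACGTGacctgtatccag
Ctsl, chr13:64370739-64370768, - strand: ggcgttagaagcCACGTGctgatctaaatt
Lgmn, chr12:102439124-102439153, - strand: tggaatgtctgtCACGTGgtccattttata

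The antioxidant response element core lay before at least 1 start of 3 of the 9 genes, Acp5, Ctsd and Ctsz, and in 10.2% of all promoters or 11.5% of genes. The Acp5 hit belongs to the innermost of its 3 starts and the windows of the other starts held none, both Ctsd hits lie within the outer bounds of the gene, and the Ctsz hit lies outside them. The capitals below mark it, on either strand.
Acp5, chr9:22130764-22130792, - strand: agaccctggcTGACTGTGCtggcttcgag
Ctsd, chr7:142387871-142387899, - strand: gcgggtcagcTGACTCCGCgggactgcgg
Ctsd, chr7:142387856-142387884, - strand: ccgcgggactGCGGCGTCAtcctgcctat
Ctsz, chr2:174439153-174439181, - strand: atggctggtgGCACTGTCAggtctggggt

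Ctsk and Ctss are neighbours on chromosome 3 and stand at opposite ends of the comparison of macrophages with fibroblasts, so their whole 250 bases are given. Capitals in Ctsk mark the core GAGGAAG of sites for PU.1, the myeloid lineage factor, which 10.6% of promoters hold and which was also found before the start of Ctsc. Capitals in Ctss mark the core of the interferon-stimulated response element, which began 21 bases before the start and which 2.98% of promoters hold. These are matches of letters and not sites shown to be bound.
Ctsk, chr3:95498960-95499209, + strand: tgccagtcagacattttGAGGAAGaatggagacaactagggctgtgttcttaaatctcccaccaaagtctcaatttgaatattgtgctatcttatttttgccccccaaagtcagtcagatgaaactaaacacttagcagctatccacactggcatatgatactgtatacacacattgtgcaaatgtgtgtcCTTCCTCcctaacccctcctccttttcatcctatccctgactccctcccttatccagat
Ctss, chr3:95526536-95526785, + strand: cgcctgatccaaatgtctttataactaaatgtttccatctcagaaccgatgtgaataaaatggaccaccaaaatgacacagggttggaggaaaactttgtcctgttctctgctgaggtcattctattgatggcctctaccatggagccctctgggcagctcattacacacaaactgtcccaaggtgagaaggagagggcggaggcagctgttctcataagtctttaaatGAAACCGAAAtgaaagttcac

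The aortic macrophages expressed a broad set of these enzymes, whereas in fibroblasts 1 of them, cathepsin L, stood above the rest. Its mean over libraries was 1771 CPM there, and Ctsb, Ctsz and Ctsd followed at 459, 376 and 328. Levels are again CPM, raw UMIs of a gene over all UMIs of the same cells, and since 3′ UMIs count molecules they were not divided by gene length. The 10 genes took 0.675%, 0.841%, 0.844% and 0.862% of macrophage UMIs, 0.289% to 0.337% of fibroblast UMIs and 0.154% to 0.156% of smooth muscle UMIs. When every cell with at least 2000 UMIs was thinned to 2000, the median macrophage held UMIs of 6 of the 10 genes. The median fibroblast held 3 and the median smooth muscle cell 2. Cells with fewer UMIs were left out here and in the shares at 2000 UMIs below. These were 14 macrophages, 428 fibroblasts and 40 smooth muscle cells.

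**Figure D1:**
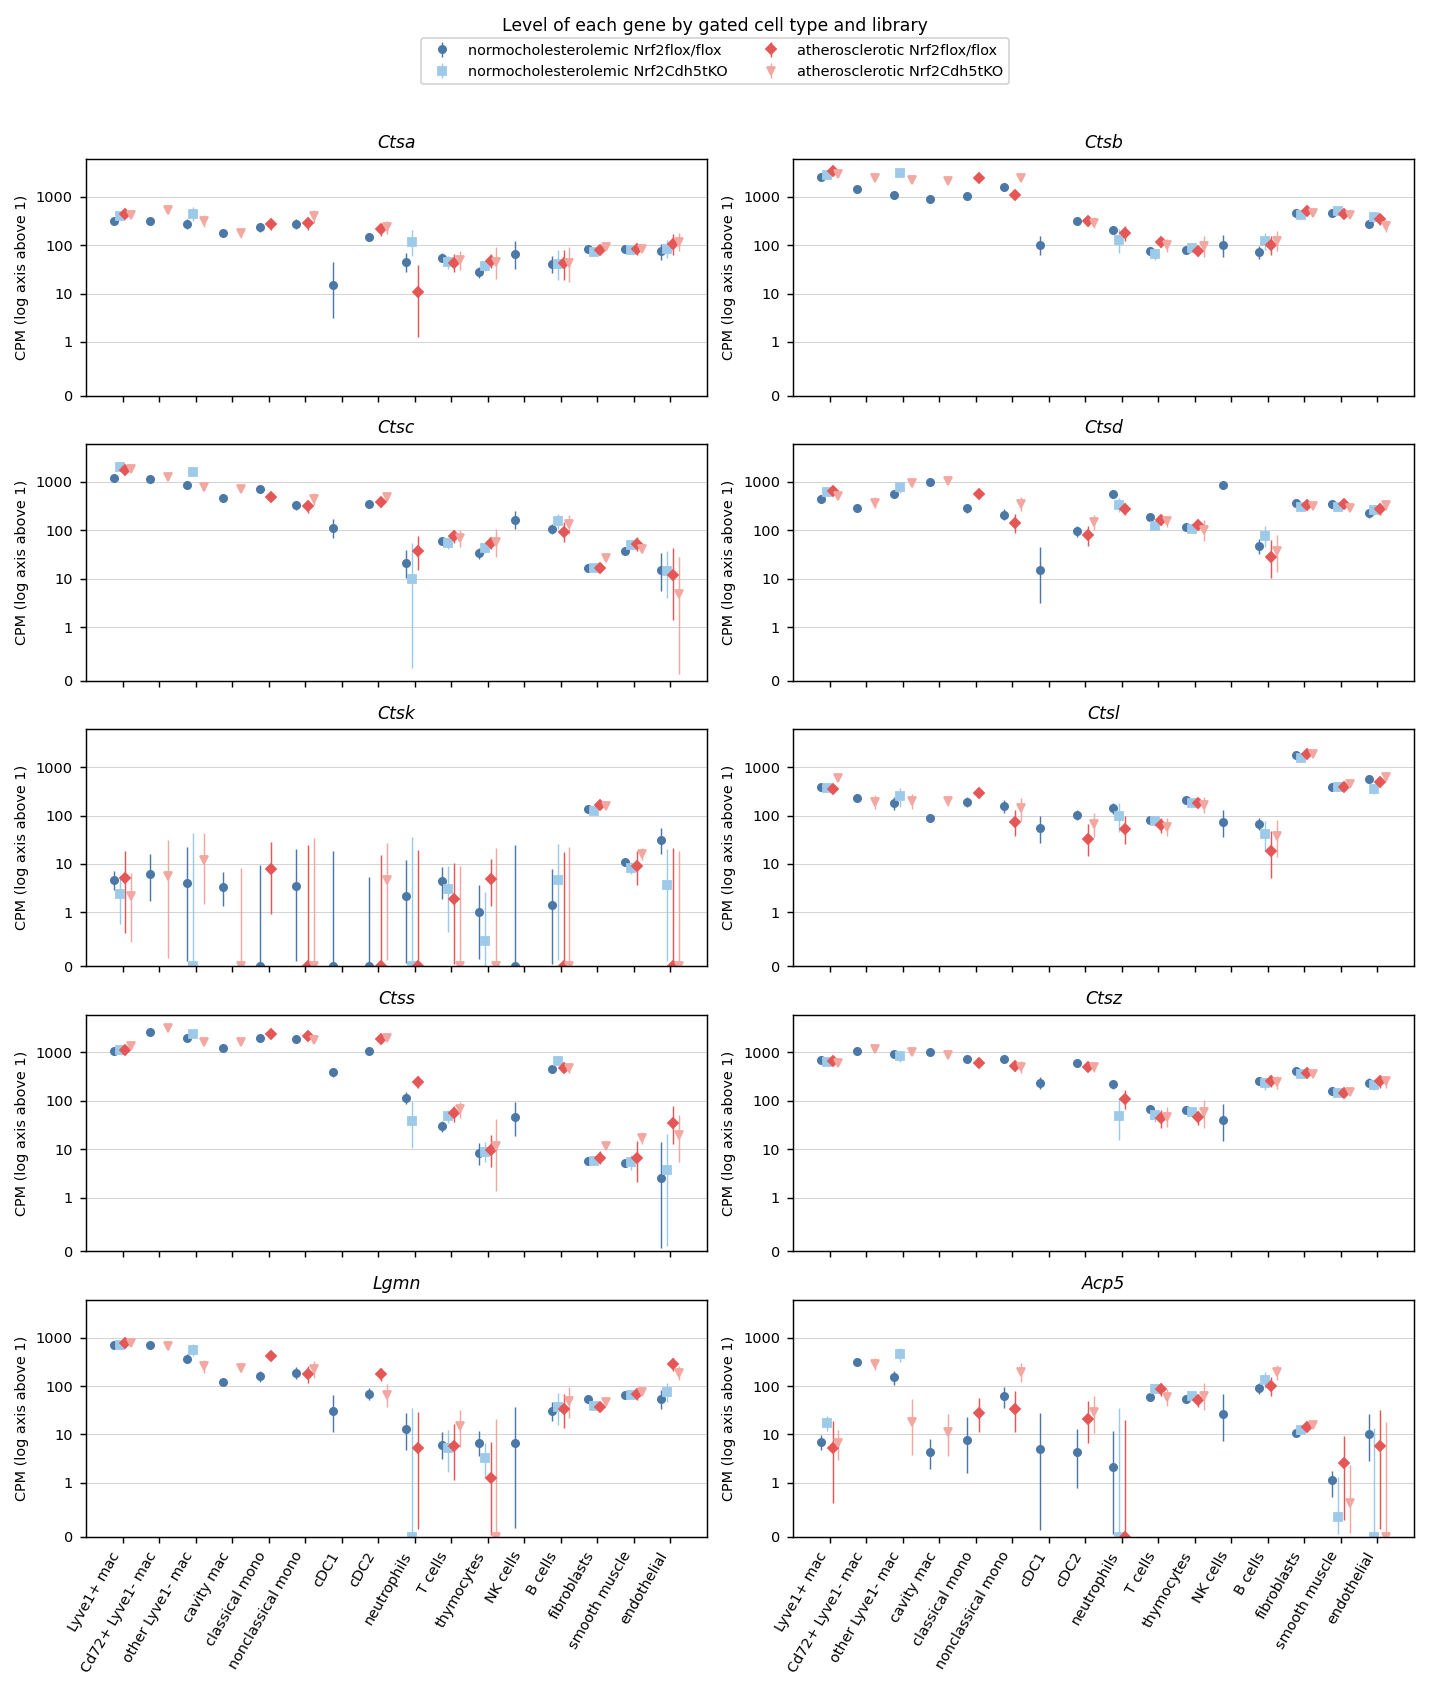
Level of each of the 10 genes (CPM, log axis above 1) in each of the 16 gated cell types, with 1 point per library of at least 10 cells and bars for the 95% Poisson interval. By mean over libraries, Ctss stands highest in Cd72+ macrophages, and Ctsc and Lgmn in Lyve1+ macrophages. In Lyve1+ macrophages the mean of Ctss (1156) is below that of monocytes and cDC2. Ctsl (1549 to 1893) and Ctsk (122 to 162) stand highest in fibroblasts.

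Among the cysteine endopeptidases, Ctsb (chr14:63122462-63145923, + strand, GRCm38), which cuts proteins internally and also trims dipeptides from their ends, was the most abundant of the 10 genes in macrophages. Its level there was 1966, 2610, 2700 and 2674 CPM, with an interval of 1934 to 1998 in the first library and 2580 to 2825 in the third. Fibroblasts held 456, 419, 508 and 452 and smooth muscle cells 468, 497, 440.3 and 411, so that macrophages were 4.31- to 6.22-fold above fibroblasts in every library. Ctsb was highest in Lyve1+ resident macrophages, at 2582, 2768, 3392 and 2964, and this range overlapped that of the other Lyve1-negative macrophages. Its annotation overlaps Fdft1 on the opposite strand.

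Ctss (chr3:95526786-95556403, + strand) encodes cathepsin S, the protease that trims the invariant chain of MHC class II in antigen-presenting cells. Macrophages held 1264, 1253, 1620 and 1590 CPM and fibroblasts 5.59, 5.68, 6.73 and 11.8, a difference of 135- to 241-fold. A Ctss UMI was found in 98.0% of macrophages (median 9524 UMIs per cell) and in 7.84% of smooth muscle cells (median 15522). After thinning to 2000 UMIs these shares were 87.7% and 1.47%. Cd72+ macrophages had the highest level, 2629 in the normocholesterolemic Nrf2flox/flox library and 3228 in the library labelled atherosclerotic Nrf2Cdh5tKO. Classical monocytes came next without overlap, at 1962 in the normocholesterolemic and 2427 in the atherosclerotic Nrf2flox/flox library. These cell types thus shared only the normocholesterolemic Nrf2flox/flox library.

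Low Ctss in stromal cells ran beside low levels of phagocyte markers there. All 7 phagocyte markers had UMIs in fibroblasts, with summed levels of 130, 117, 107 and 151 CPM. For each 1000 UMIs of these markers there were 60.2 to 99.8 Ctss UMIs in macrophages, 43.0 to 77.7 in fibroblasts, lower than in macrophages in each library, and 43.7 to 104 in smooth muscle cells, depending on the library. The part of free or engulfed phagocyte RNA in the stromal Ctss counts was not tested.

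Cathepsin C, encoded by Ctsc (chr7:88278085-88310888, + strand), removes dipeptides from protein ends and activates the serine proteases of immune cell granules. Its level in macrophages was 996.8, 1839, 1378 and 1489 CPM, against 16.8, 16.4, 16.4 and 27.3 in fibroblasts, 54.5- to 112-fold lower. Smooth muscle cells held 36.9, 49.9, 52.9 and 41.2, above fibroblasts in all 4 libraries by 1.51- to 3.22-fold. Per 1000 phagocyte marker UMIs, Ctsc came to 351, 403, 569 and 250 in smooth muscle cells and to 47.4, 113, 80.8 and 93.5 in macrophages. Ctsc overlaps Gm26522 on the opposite strand.

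Lgmn (chr12:102394084-102439813, - strand) encodes legumain, which cuts after asparagine and processes other cathepsins to their mature forms. Macrophages held 523, 668, 576 and 621 CPM and fibroblasts 55.2, 38.8, 37.4 and 46.7, which is 9.48- to 17.2-fold lower. Lgmn was highest and nearly even in Lyve1+ macrophages, at 694, 714.5, 775 and 781, and Cd72+ macrophages overlapped this range at 696 and 682.

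The carboxypeptidases were present in stromal cells too. Ctsz (chr2:174427493-174439039, - strand), which removes single residues from protein ends, was at 819.5, 658.6, 697.6 and 748 CPM in macrophages and 419, 356, 366 and 362 in fibroblasts, 1.85- to 2.07-fold apart. Smooth muscle cells held less, 159, 147, 145 and 151. Ctsa (chr2:164832873-164841032, + strand), the protective protein that stabilizes lysosomal neuraminidase and beta-galactosidase, was at 275, 373, 355 and 376 in macrophages, 3.25- to 5.20-fold above fibroblasts. Fibroblasts and smooth muscle cells did not separate in Ctsa, with 84.6, 71.7, 80.9 and 89.8 against 84.6, 78.6, 81.3 and 84.2. Ctsz overlaps Nelfcd, and Ctsa overlaps Neurl2 and Pltp, on the opposite strand.

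Ctsd (chr7:142375911-142388038, - strand), the main aspartic protease of lysosomes, was less uneven between these cell types. Macrophages held 584, 618, 743 and 645 CPM, fibroblasts 374, 300.2, 328 and 311.5 and smooth muscle cells 343, 299.8, 343 and 289. Cavity macrophages stood highest at 977 and 1030 in the 2 libraries with at least 10 of them. Natural killer cells came next, with 879 (interval 736 to 1043, 29 cells) in the normocholesterolemic Nrf2flox/flox library against 191 in its T cells. This place rests on that library alone and overlapped the other Lyve1-negative macrophages (558 to 943). The remaining libraries, with 6, 2 and 5 natural killer cells, were lower at 601, 533 and 315. Ctsd overlaps Gm49369 on the same strand, and how reads in the shared stretch were assigned is not given in the sources used here.

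Cathepsin L and cathepsin K had the opposite pattern. Ctsl (chr13:64359337-64370890, - strand), a cysteine endopeptidase also known for processing the invariant chain in the thymus, was at 1796, 1549, 1845 and 1893 CPM in fibroblasts and at 286, 347, 341 and 445 in macrophages. Fibroblasts were 4.25- to 6.29-fold above macrophages, 4.03- to 4.70-fold above smooth muscle cells (386, 384, 393 and 458) and 2.99- to 4.42-fold above endothelial cells (556, 350.1, 497 and 632). No other cell type overlapped the fibroblast range. Ctsl overlaps Gm47123 on the opposite strand.

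Ctsk (chr3:95499256-95509362, + strand) encodes the collagen-cutting protease known from osteoclasts, and in the arch it was a fibroblast gene. Fibroblasts held 136, 122, 162 and 160.3 CPM, 30.9- to 58.7-fold above macrophages, which held 4.40, 2.08, 4.30 and 2.78. Smooth muscle cells were at 10.8, 8.29, 9.04 and 16.1. A Ctsk UMI was seen in 61.6% of fibroblasts (median 12848 UMIs per cell), in 13.7% of smooth muscle cells and in 3.68% of macrophages, and at 2000 UMIs per cell in 22.6%, 2.23% and 0.745%.

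Acp5 (chr9:22126727-22135711, - strand), the tartrate-resistant acid phosphatase used to stain osteoclasts, was scarce in macrophages as a whole, at 36.6, 40.7, 24.4 and 31.0 CPM. Cd72+ cells held 312 and 284 CPM against 6.87 and 6.56 in Lyve1+ macrophages of the same 2 libraries, 45.4- and 43.3-fold apart. In the normocholesterolemic Nrf2flox/flox library 26 of 52 Cd72+ cells held 197 Acp5 UMIs, and in the library labelled atherosclerotic Nrf2Cdh5tKO 12 of 18 held 50. The other Lyve1-negative macrophages overlapped this range, at 150.8, 449 and 18.4 CPM in the 3 libraries with at least 10 of them, the highest in the 11 cells of the library labelled normocholesterolemic Nrf2Cdh5tKO. Acp5 was also present in lymphocytes, at 91.1, 133, 99.3 and 192 in B cells, 59.7, 88.0, 85.3 and 59.0 in T cells and 53.4, 63.7, 50.5 and 63.0 in thymocytes. At 2000 UMIs per cell its share of cells was 28.9% in Cd72+ macrophages, 17.2% in B cells, 16.2% in T cells, 14.6% in thymocytes, 1.21% in Lyve1+ macrophages and 0.253% in smooth muscle cells.

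**Figure D2:**
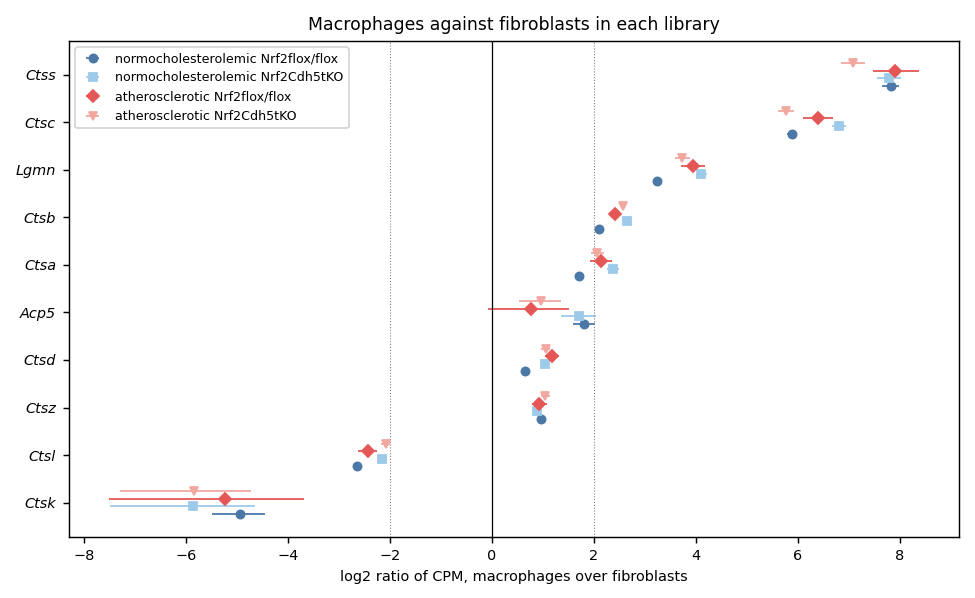
The log2 ratio of CPM in macrophages over fibroblasts for each gene, 1 point per library with its 95% interval, with dotted lines at 4-fold. Ctss, Ctsc, Lgmn and Ctsb lie beyond 4-fold on the macrophage side and Ctsl and Ctsk beyond it on the fibroblast side in all 4 libraries.

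Set against all genes, 4 of the 10 enzymes were at least 4-fold higher in macrophages than in fibroblasts in all 4 libraries, a property of 4.53% of 9448 genes tested. On the other side 2 of the 10, Ctsl and Ctsk, were at least 4-fold lower in all 4, a property of 13.4%. The median log2 ratio was 1.71 over the 10 genes and -0.26 over all genes. Acp5 was higher in macrophages with an interval above 0 in 3 of 4 libraries, and the intervals of the other 9 genes lay to 1 side of 0 in all 4.

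Other lists of lysosomal genes were counted in the same way, against the same 4.53% and 13.4% of all genes. Of 35 other acid hydrolases and cofactors tested, 4 passed 4-fold higher in macrophages in all 4 libraries, Man2b1, Dnase2a, Gla and Galc, and 1, Cpq, passed 4-fold lower, with a median log2 ratio of 0.59. Man2b1, the lysosomal alpha-mannosidase, was at 252, 379, 397 and 351 CPM in macrophages and 57.4, 56.2, 78.5 and 65.3 in fibroblasts. Among 12 lysosomal membrane genes 3 passed, Laptm5, Cd68 and Slc11a1 (median 0.63), and among 16 genes of the proton pump that acidifies the lysosome 3 passed, Atp6v1a, Atp6v1b2 and Atp6v0c (median 1.16). None of 6 sorting genes (median -1.26), 3 regulators of lysosomal genes (median 1.38), 2 cystatins and stefins (median 0.17) or 3 other cathepsins (median -0.29) passed 4-fold in either direction. Of 4 osteoclast-type genes tested, Mmp9 passed higher, 64.7- to 157-fold, and Ctsk lower.

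The mixture of the 10 enzymes differed by kind of macrophage. In Lyve1+ cells Ctsb took 33.8% of the 10 genes' UMIs and Ctsc 19.2%. Cd72+ cells were led by Ctss at 32.1%. Cavity macrophages were led by Ctss at 25.2%, followed by Ctsb at 20.7%, Ctsd at 17.9% and Ctsz at 17.9%. In the library labelled atherosclerotic Nrf2Cdh5tKO, Ctsb led in cavity macrophages at 29.7%, with Ctss at 23.7%.

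**Figure D3:**
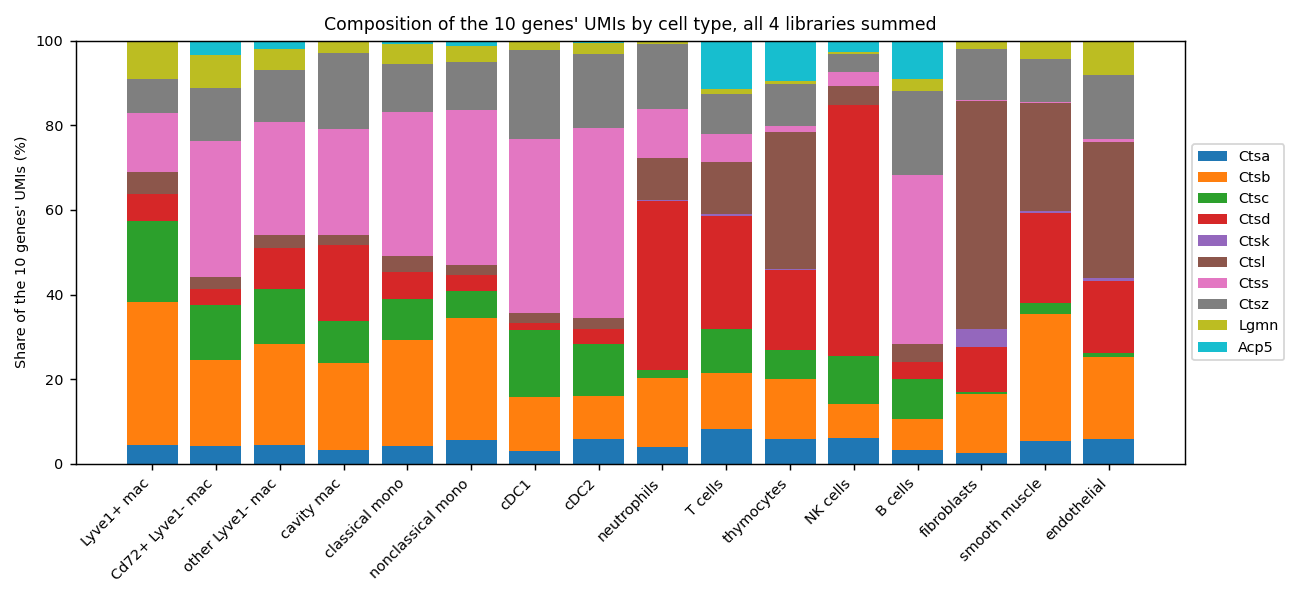
Share of the 10 genes' UMIs (%, stacked to 100) taken by each gene in each cell type, with the 4 libraries summed. Ctsb leads in Lyve1+ macrophages (33.8%), Ctss in cDC2 (44.8%) and Cd72+ macrophages (32.1%), Ctsd in NK cells (59.4%) and Ctsl in fibroblasts (54.0%).

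Cd72+ macrophages were compared with Lyve1+ macrophages within the 2 libraries that held at least 10 cells of both. Ctss was 2.51- and 2.38-fold higher in Cd72+ cells, and Ctsz, at 1081 and 1182 CPM against 682 and 613, was 1.58- and 1.93-fold higher. Ctsl was lower, at 226 and 193 against 391 and 586, and so was Ctsb, at 1470 and 2410 against 2582 and 2964. Ctsc, at 1124 and 1262 against 1231 and 1858, and Ctsd, at 296 and 375 against 443 and 519, were also lower, and intervals for Lgmn and Ctsa held 0 in both libraries. The genes that placed these cells exclude Ctss and Acp5, although both are known markers of intima resident macrophages.

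Cavity macrophages held less Ctsb, Lgmn, Ctsl and Ctsc than Lyve1+ cells and more Ctsd. Ctsd was 2.21- and 1.99-fold higher there, and Ctsz was at 1023 and 890 CPM against 682 and 613. Lgmn, at 121 and 241 against 694 and 781, was 3.24- to 5.75-fold lower. Ctsl, at 89.8 and 201, was 2.92- to 4.36-fold lower, and Ctsc, at 471 and 711, was 2.61-fold lower in both libraries. Median depth was 18278 UMIs per cell in cavity and 8844.5 in Lyve1+ macrophages, a gap that CPM scales out.

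Monocytes and type 2 conventional dendritic cells also held high Ctss. Type 1 conventional dendritic cells (cDC1) held 384 CPM in the normocholesterolemic Nrf2flox/flox library, the only one with at least 10 of them. Type 2 conventional dendritic cells (cDC2), which present antigen to CD4+ T cells, held Ctss at 1052, 1889 and 2028 CPM in the 3 libraries with at least 10 of them, all but the one labelled normocholesterolemic Nrf2Cdh5tKO, and Ctss was 44.8% of their 10-gene UMIs. Against these cells Lyve1+ macrophages had 8.24- to 10.9-fold more Ctsb, 4.44- to 11.7-fold more Lgmn and 3.46- to 4.52-fold more Ctsc in every such library, while Ctss did not separate them without overlap. Nonclassical monocytes had Ctss at 1865, 2156 and 1833 in the same 3 libraries, and classical monocytes had it at 1962 and 2427 in the normocholesterolemic and atherosclerotic Nrf2flox/flox libraries.

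T cells held little of these enzymes, 0.0558% to 0.0654% of their UMIs. B cells, which also present antigen, held Ctss at 453, 669, 482 and 477 CPM, 7.19- to 15.3-fold above T cells, and Ctsz at 256, 229, 255 and 242, 3.76- to 5.86-fold above them. Thymocytes had 2.35- to 2.82-fold more Ctsl than T cells, at 213, 185, 181 and 166 against 79.8, 78.7, 64.4 and 59.0, and 3.57- to 5.79-fold less Ctss. The largest of these Ctss folds rests on 2 UMIs in thymocytes of the library labelled atherosclerotic Nrf2Cdh5tKO. Natural killer cells gave 59.4% and neutrophils 39.9% of their 10-gene UMIs to Ctsd.

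Across the 16 cell types, Pearson's r of log2(CPM + 1) between members was 0.91 for Ctsa with Ctsb and for Ctsz with Lgmn, 0.90 for Ctsb with Lgmn, 0.87 for Ctsc with Ctss and 0.88 for Ctsk with Ctsl. For Ctsl with Ctss it was -0.37. Of 13178 genes with at least 200 UMIs, those most like Ctss were Pld4 (r = 0.98), Irf5 and Unc93b1, and those most like Ctsb included Grn (r = 0.93) and Plxnb2. Nearest to Ctsc were Atp13a2 (r = 0.92), Adgre1 and Kcnk13, to Ctsl Hdlbp (r = 0.95), Trip6 and Layn, and to Ctsk Abca8b (r = 0.94), C1ra and Pdpn. Lgmn was nearest to Cyfip1 (r = 0.96), Alpk1 and Dnase1l1, Ctsz to Ctsh (r = 0.94), Cyfip1 and Tmem106a, and Ctsa to Ddi2 (r = 0.96), Abhd12 and Mfsd1. The closest patterns were weaker for Ctsd, with Tmem50a (r = 0.87), Cnnm2 and Pwwp2b, and for Acp5, with Rasgrp1 (r = 0.80), Ubald1 and Il21r. These are descriptions over cell types drawn from the same 4 libraries.

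Between conditions, at most 1 of these enzymes passed 1.5-fold in macrophages in any comparison. Under other settings this count ran from 0 to 2 for the diet in Nrf2flox/flox, from 0 to 3 for the genotype label in normocholesterolemic mice and from 0 to 1 in the other comparisons. No share of all genes was computed under those settings. Atherosclerotic and normocholesterolemic libraries, called the diet comparison here, were compared within each genotype label, and genotype labels within each diet, over genes with at least 50 UMIs in the 2 libraries together. Ctsk did not reach this minimum in macrophages, which left 9 genes. The median log2 ratio of all genes tested was 0.14 and -0.11 for the diet, in Nrf2flox/flox and in libraries labelled Nrf2Cdh5tKO, and 0.24 and -0.03 for the genotype label, in normocholesterolemic and atherosclerotic libraries, and the ratios of single genes are to be read against these medians.

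Between the atherosclerotic and normocholesterolemic Nrf2flox/flox libraries, 1 of the 9 genes passed 1.5-fold, against 33.3% of all genes tested in either direction. It was Acp5, with a log2 ratio of -0.59 whose interval of -1.39 to 0.12 held 0. Ctsc, Ctsb, Ctsa, Ctss and Ctsd stood at 0.47, 0.46, 0.37, 0.36 and 0.35 with intervals above 0, and Ctsz at -0.23 (-0.37 to -0.10). The 9 genes had a median of 0.35, and the 10 genes summed a log2 ratio of 0.32 (0.28 to 0.36). The atherosclerotic Nrf2flox/flox library held 74 macrophages.

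In the libraries labelled Nrf2Cdh5tKO none of the 9 genes passed 1.5-fold for the diet, against 16.9% of all genes. Ctsl stood at 0.36 (0.23 to 0.50), Ctss at 0.34 (0.27 to 0.41) and Ctsz at 0.18, while Ctsc was at -0.30 (-0.37 to -0.24). The median was 0.03 and the summed ratio 0.04, which turned to -0.21 with each kind of macrophage weighted equally. Only kinds with at least 10 cells in both libraries entered this weighting. Here these were Lyve1+ cells (248 normocholesterolemic and 171 atherosclerotic) and the few other Lyve1-negative cells (11 and 17). The 10 genes took 0.863% and 0.911% of UMIs in the Lyve1+ cells, and 1.03% and 0.732% in the other Lyve1-negative cells. Their share was thus lower in the atherosclerotic library only in the latter. Ctss and Ctsl had intervals above 0 for the diet under both genotype labels, with Ctsl at 0.25 (0.06 to 0.45) in Nrf2flox/flox, but neither direction was kept when each kind of macrophage was weighted equally. Ctss in the libraries labelled Nrf2Cdh5tKO was then at -0.13. In Lyve1+ cells alone Ctss was highest in the library labelled atherosclerotic Nrf2Cdh5tKO, at 1356 CPM, in a range from 1048 over libraries. The value of -0.13 thus holds for the weighted mean, not for Lyve1+ cells. In the other Lyve1-negative cells Ctss ranged from 1611 to 2365 CPM over the libraries with at least 10 of them. In Nrf2flox/flox only Lyve1+ cells entered the weighting, and Ctsl was at -0.13.

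Between genotype labels in normocholesterolemic mice, 1 of 9 genes passed 1.5-fold, against 33.7% of all genes. It was Ctsc, at 996.8 and 1839 CPM, a log2 ratio of 0.88 (0.83 to 0.94). Ctsa, Ctsb, Lgmn and Ctsl stood at 0.44, 0.41, 0.35 and 0.28, Ctsz at -0.32 (-0.40 to -0.24) and Ctss at -0.01 (-0.07 to 0.05). The median of the 9 was 0.28, close to the 0.24 of all genes. In atherosclerotic mice none of 9 passed, against 17.6% of all genes, and Ctsc was at 0.11 (0.01 to 0.22), Ctsl at 0.39 (0.18 to 0.60) and Ctsd at -0.20.

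Because the share of cavity cells differed between libraries, the comparison was also read within Lyve1+ macrophages. There Ctsc was at 1231, 1992, 1728 and 1858 CPM, so the low value remained that of the normocholesterolemic Nrf2flox/flox library, with a genotype log2 ratio of 0.69 (0.64 to 0.75). Ctsb narrowed to a genotype ratio of 0.10 (0.05 to 0.15) in normocholesterolemic mice. Ctsl was at 391, 368, 357 and 586, high in the library labelled atherosclerotic Nrf2Cdh5tKO, with a diet ratio of 0.67 (0.53 to 0.82) in the libraries labelled Nrf2Cdh5tKO and of -0.13 (-0.39 to 0.12) in Nrf2flox/flox. Ctsd was at 443, 630.2, 648 and 519 and Ctsz at 682, 638, 654 and 613. Acp5 was low there, at 6.87, 17.0, 5.17 and 6.56, with a genotype ratio of 1.30 (0.56 to 2.05) in normocholesterolemic mice. The medians and shares of all genes quoted above are those of all macrophages. For Lyve1+ cells no share of all genes past 1.5-fold is given and the medians are only drawn in the figure, so these ratios stand without that share.

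**Figure D4:**
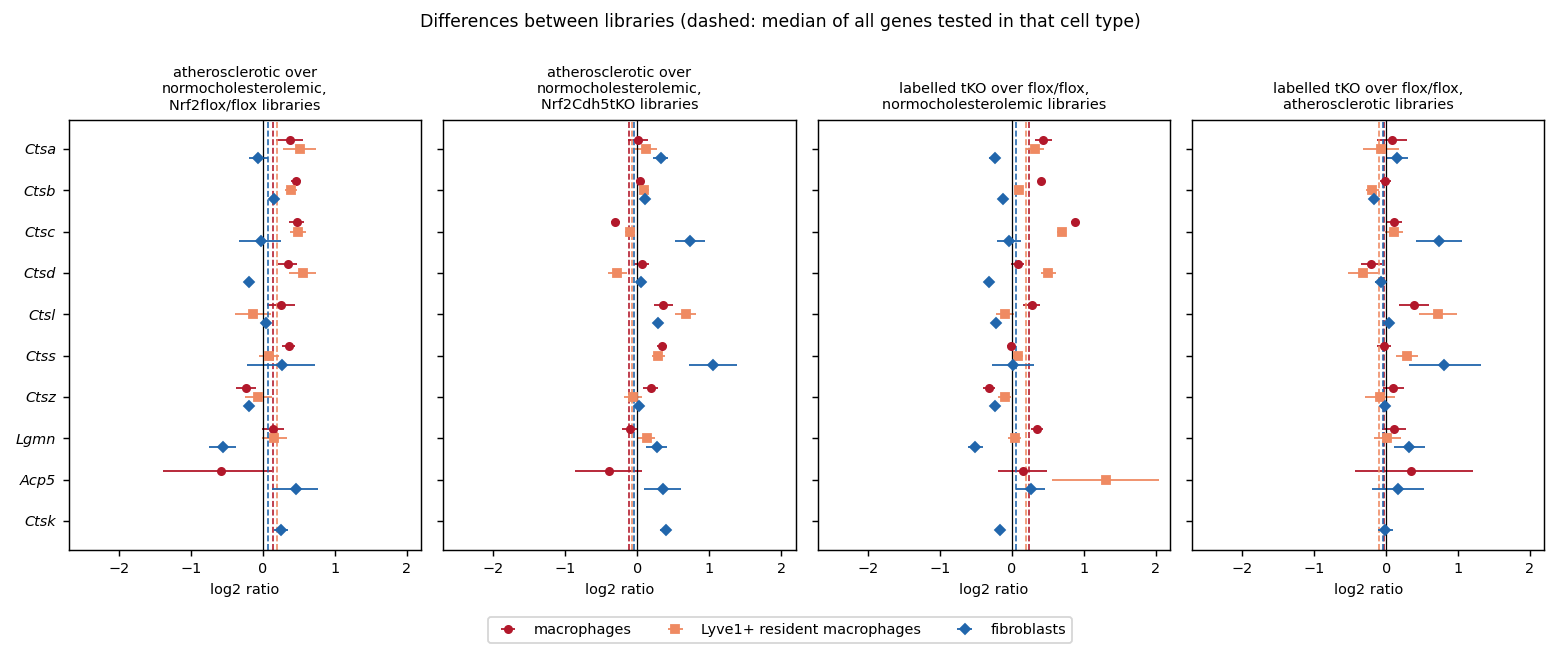
The log2 ratio between libraries (x axis) for each gene (y axis) in macrophages, Lyve1+ macrophages and fibroblasts, with 95% counting intervals, for the diet within each genotype label and the genotype label within each diet. Dashed lines are the medians of all genes tested, and most points lie within 1 log2 unit of 0, with Ctsc in normocholesterolemic macrophages at 0.88.

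Fibroblasts had all 10 genes above the minimum. For the diet none of 10 passed 1.5-fold in Nrf2flox/flox, against 18.8% of all genes, and 2 of 10 did in the libraries labelled Nrf2Cdh5tKO, against 11.5%. These were Ctsc at 0.73 (0.53 to 0.94) and Ctss at 1.05 (0.72 to 1.38). For the genotype label none of 10 passed in normocholesterolemic mice, against 13.3%, and 2 of 10 in atherosclerotic mice, against 5.57%, again Ctsc at 0.73 and Ctss at 0.81. Both were high in the library labelled atherosclerotic Nrf2Cdh5tKO, the one with the highest summed phagocyte markers in fibroblasts (151 CPM), and the part of these in the result was not tested.

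Other members in fibroblasts stayed within 1.5-fold. Ctsk was higher with the diet under both labels, by 0.25 (0.16 to 0.34) and 0.39 (0.31 to 0.47), against all-gene medians of 0.07 and -0.05. The diet ratio of Ctsl was 0.04 (0.01 to 0.07) and 0.29 (0.27 to 0.31), and that of Ctsb 0.16 and 0.11. Lgmn was highest in the normocholesterolemic Nrf2flox/flox library, with diet ratios of -0.56 (-0.75 to -0.37) and 0.27 (0.12 to 0.41).

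In smooth muscle cells 9 genes reached the minimum, all but Acp5. None of 9 passed 1.5-fold for the diet in Nrf2flox/flox, against 30.9% of all genes, or for the genotype label in normocholesterolemic mice, against 13.1%. In the libraries labelled Nrf2Cdh5tKO 2 of 9 passed for the diet, against 10.9%, Ctss at 1.66 (0.99 to 2.36) and Ctsk at 0.96 (0.36 to 1.57). The same pair passed for the genotype label in atherosclerotic mice, against 15.5%, Ctss at 1.40 and Ctsk at 0.84 (-0.31 to 2.22). The Ctsk interval held 0. The atherosclerotic Nrf2flox/flox library had 67 smooth muscle cells with 774505 UMIs in all, so both ratios rest on few UMIs there. Levels of Ctss were 5.16, 5.41, 6.46 and 17.1 CPM beside summed phagocyte markers of 105, 124, 93.0 and 165, whose part was not tested.

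Among the other lysosomal lists in macrophages, 10 of 34 acid hydrolases passed 1.5-fold higher with the diet in Nrf2flox/flox and 1 lower (median 0.38), against 33.3% of all genes in either direction, and in the libraries labelled Nrf2Cdh5tKO 5 of 34 passed higher and 4 lower (median -0.04), against 16.9%. Against the same shares, of 16 proton pump genes 1 passed higher and none lower in the first of these comparisons (median -0.17), and none passed in the second (median 0.08). For 4 regulators of lysosomal genes, again against these shares, 2 passed higher in Nrf2flox/flox (median 0.62), and 1 passed lower in the libraries labelled Nrf2Cdh5tKO (median -0.35).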

How the data were processed

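Single-cell 3′ RNA libraries of 4 conditions were analysed. The authors mapped the reads to mm10 and deposited raw UMI counts per gene and cell barcode made with Cell Ranger 6.1.2, per the submitters' processing notes, and no columns of other samples were present. The study's limits were applied first, which took cells of 200 to 6000 genes whose mitochondrial UMIs did not exceed 15%. Cell types were gated by marker genes other than the 10 enzymes, with cut-offs set on the marker UMIs, and doublets were left in. UMIs were summed per gate and library and divided by the gate's total, with exact Poisson intervals for levels, exact binomial intervals for ratios and Clopper-Pearson intervals for shares. With 1 library per condition no test was run. All 10 enzymes are named, list genes only where over 4-fold apart between macrophages and fibroblasts in all libraries, and of similar patterns the 3 highest r. 1 of these genes and a further agent given to the atherosclerotic mice are not reported here. The members and lists were chosen with earlier results of these data known. The ratio and interval code was tested on simulated data. Gene positions came from GENCODE M21. Work was done in Python 3.11.15 with pandas 2.3.3, scipy 1.17.1, numpy 2.4.6, scanpy 1.11.5 (for Scrublet) and matplotlib 3.10.9. Alternatives covered the gates, filters, doublets, scale, weighting, limits and thinning.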

Additional observations from a re-analysis of the deposited data

Results flagged for a closer look

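In 8 cases a ratio of an enzyme had opposite signs, with both counting intervals away from 0, either for the diet under the 2 genotype labels or for the genotype label under the 2 diets. The diet ratio did so for Ctsc and Ctsz in macrophages, Ctsc and Ctsd in Lyve1+ resident macrophages and Lgmn in fibroblasts, and the genotype ratio for Ctsb and Ctsd in Lyve1+ resident macrophages and Ctsa, Ctsl and Lgmn in fibroblasts. These differences rest on 1 library per condition and were not tested. The signs are those of the ratios themselves, not of their distance from the medians of all genes. For the diet in macrophages and in fibroblasts, those medians also had opposite signs under the 2 genotype labels. Neither the number of ratios searched nor the share of all genes meeting this rule is given, so the 8 cases stand without a background. The log2 diet ratio in libraries labelled Nrf2Cdh5tKO minus that in Nrf2flox/flox was -0.77 for Ctsc and 0.42 for Ctsz in macrophages. In Lyve1+ resident macrophages it was -0.29 for Ctsb, -0.59 for Ctsc and -0.83 for Ctsd. In fibroblasts it was 0.39 for Ctsa, 0.25 for Ctsl and 0.83 for Lgmn.

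The comparisons leave out cells that no gate or more than 1 gate took. The 10 genes made up 0.242% of UMIs in 760 cells that passed no lineage gate, 0.315% in 566 cells that passed 2 or more and 0.600% in 144 phagocytes that could not be placed, above the limit of 3 counts.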

How the results depend on the processing

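No paired analysis was possible because each condition is 1 library. The 4 enzymes at least 4-fold higher in macrophages than in fibroblasts numbered 4 to 5 under every alternative run, and the 2 at least 4-fold lower became 1 with the mean over cells. The summed log2 ratio in macrophages was 0.32 and 0.04 for the diet (Nrf2flox/flox, then labelled Nrf2Cdh5tKO) and 0.32 and 0.03 for the genotype label (normocholesterolemic, then atherosclerotic). With 1 more marker per gate these were 0.26, 0.0827, 0.27 and 0.0940. Without mitochondrial, ribosomal and dissociation genes in the total the first 3 were 0.27, 0.0726 and 0.26, and scaled by the median ratio 0.18, 0.15 and 0.0770. With each kind of macrophage weighted equally the diet ratio labelled Nrf2Cdh5tKO turned to -0.21 and the normocholesterolemic genotype ratio was 0.46. Only kinds with at least 10 cells in both libraries entered this weighting. These were Lyve1+ and other Lyve1-negative cells for these ratios, and Lyve1+ cells alone for the other comparisons. In the normocholesterolemic Nrf2flox/flox library and those labelled normocholesterolemic and atherosclerotic Nrf2Cdh5tKO, the 10 genes took 0.740%, 0.863% and 0.911% of Lyve1+ UMIs. In the other Lyve1-negative cells, 25, 11 and 17 in number, they took 0.638%, 1.03% and 0.732%. For the diet the share was thus lower only in these few cells, and higher in Lyve1+ cells. With the mean over cells the atherosclerotic genotype ratio was -0.0118. Equal weighting also turned Ctsl for the diet in Nrf2flox/flox to -0.13 and Ctss for the diet in the libraries labelled Nrf2Cdh5tKO to -0.13. Why the kinds of macrophage differed in these ratios was not tested.

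Genes past 1.5-fold for the diet in Nrf2flox/flox (1) became 0 with 1 more marker, 10% mitochondrial UMIs, no upper gene limit, at least 3000 UMIs per cell, equal weighting or a 2-fold limit, and 2 with the mean over cells. Labelled Nrf2Cdh5tKO (0) they became 1 with equal weighting. For the normocholesterolemic genotype label (1) they became 3 with equal weighting, 0 at 2-fold and 2 with a minimum of 20 UMIs, and for the atherosclerotic one (0) 1 with the mean over cells or equal weighting. The share of all genes past the limit was not computed under these settings, so the counts stand without a background. Scrublet marked 306 of 14148 cells, and their removal moved none of these counts. Thinning to 4000 UMIs and leaving out libraries were chosen after seeing the data. With few macrophages in the atherosclerotic Nrf2flox/flox library (74), changes near its counting intervals could not be resolved.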

Other observations

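Endothelial cells, which line the vessel and carry the Cre driver, had a higher Lgmn level in the atherosclerotic libraries. The level was 54.3, 76.6, 281 and 188 CPM, and the log2 diet ratio was 2.37 (1.60 to 3.18) in Nrf2flox/flox and 1.29 (0.49 to 2.14) in the libraries labelled Nrf2Cdh5tKO. It rests on 21, 21, 48 and 38 UMIs in 15 of 74, 14 of 43, 10 of 28 and 10 of 23 cells, so a few cells held many UMIs each. Summed phagocyte markers in endothelial cells were 191, 270, 211 and 109 CPM. Ctss, which was high in phagocytes, was at 2.59, 3.65, 35.1 and 19.8 CPM there, higher in the atherosclerotic libraries as Lgmn was, on 1, 1, 6 and 4 UMIs. The part of phagocyte RNA in the Lgmn level was not tested. No all-gene median or share past 1.5-fold is given for endothelial cells, so these ratios stand without a background. Ctsl there was 556, 350.1, 497 and 632.

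Classical monocytes, the blood precursors of recruited macrophages, could be compared only between the Nrf2flox/flox libraries, with 32 normocholesterolemic and 17 atherosclerotic cells. Ctsb was at 1016 and 2419 CPM, a log2 ratio of 1.25 (1.07 to 1.44), and Lgmn at 159 and 418, a log2 ratio of 1.39 (0.92 to 1.87). Ctsc was lower in the atherosclerotic cells, at 723 and 485. The all-gene median and the share of all genes past 1.5-fold are not given for these monocytes, so their ratios stand without a background.

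Acp5 in the other Lyve1-negative macrophages sat in few cells. The libraries held 37 UMIs in 5 of 25 cells, 38 in 3 of 11, 4 in 1 of 8 and 3 in 2 of 17. Of the Cd72+ cells, 69 of 83 also held at least 4 of 5 proinflammatory markers, as did 414 of 920 Lyve1+ cells, 27 of 61 other Lyve1-negative cells and 17 of 158 cavity macrophages.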
